A study of Mus musculus with 6 samples.

Results

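The 10 genes described here encode chemokines that hepatocytes and other liver cells can secrete, namely *Ccl2*, *Ccl7*, *Ccl5*, *Ccl9*, *Cxcl1*, *Cxcl2*, *Cxcl5*, *Cxcl10*, *Cxcl12* and *Cx3cl1*. They were taken by gene name from an RNA-seq table of 57180 mouse genes, where 14151 genes, 9 of the 10 among them, passed the filter on low counts and *Cx3cl1* did not. The libraries came from primary hepatocytes of male mice on a C57BL/6 background, aged 8 to 10 weeks, that had been isolated by collagenase perfusion and cultured with dexamethasone. LOXP cells carried the floxed STING gene. STINGLKO cells came from floxed mice crossed with Albumin-Cre mice, whose Cre recombinase is driven by the albumin promoter, which is active in hepatocytes. Cells of a culture in which that promoter was never active would keep the gene. Every library, LOXP1 to LOXP3 and KO1 to KO3, was exposed to 0.1 mM palmitic acid, a saturated fatty acid, for 24 h, and no group without palmitic acid was analysed here (n = 3 libraries per group). The question was what the liver deletion of STING changes in fat-loaded hepatocytes.

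Chemokines are small secreted proteins that steer leukocytes along a gradient by way of G protein-coupled receptors on the target cell. Their mRNAs are short-lived, and many are induced by NF-kappaB downstream of tumour necrosis factor, interleukin 1 and Toll-like receptors, or by interferon through STAT and IRF factors. STING, the adaptor that senses cyclic dinucleotides made after DNA reaches the cytosol, feeds both branches by way of the kinase TBK1. In the liver, ligands of CCR2 draw monocytes, ligands of CXCR2 draw neutrophils, ligands of CXCR3 draw T cells, and CXCL12 holds and guides CXCR4-bearing cells.

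Promoter sequence from RefSeq (GRCm38.p6) was found by gene symbol for 6 of the 10 genes, and the 250 bases before the start of transcription were searched on both strands for the NF-kappaB consensus and for the interferon-stimulated response element GAAANNGAAA. Of 32851 mouse promoters of this length, 7.25% held the NF-kappaB consensus and 2.98% the interferon element. *Cxcl1*, *Cxcl2*, *Cxcl10* and *Cxcl12* are shown because leaving out LOXP2 turned the direction of the difference for the first pair and not for the others. The *Cxcl1* window is chr5:90890995-90891244 on the plus strand, and that of *Cxcl2* is chr5:90903649-90903898 on the same strand. *Cxcl10* was read from chr5:92348890-92349139 on the minus strand, and *Cxcl12* from chr6:117168285-117168534 on the plus strand. Each is written 5′ to 3′ in the direction of its gene, and capitals mark the bases covered by a match on either strand.
Cxcl1: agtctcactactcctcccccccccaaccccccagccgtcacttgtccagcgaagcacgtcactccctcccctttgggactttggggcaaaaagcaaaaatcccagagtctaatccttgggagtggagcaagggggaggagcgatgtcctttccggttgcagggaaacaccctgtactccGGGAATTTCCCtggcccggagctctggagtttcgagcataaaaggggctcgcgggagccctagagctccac
Cxcl2: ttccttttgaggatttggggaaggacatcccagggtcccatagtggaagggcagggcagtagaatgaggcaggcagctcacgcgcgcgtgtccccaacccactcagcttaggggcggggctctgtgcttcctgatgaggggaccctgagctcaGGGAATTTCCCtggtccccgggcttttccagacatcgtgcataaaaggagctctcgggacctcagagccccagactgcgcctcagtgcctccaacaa
Cxcl10: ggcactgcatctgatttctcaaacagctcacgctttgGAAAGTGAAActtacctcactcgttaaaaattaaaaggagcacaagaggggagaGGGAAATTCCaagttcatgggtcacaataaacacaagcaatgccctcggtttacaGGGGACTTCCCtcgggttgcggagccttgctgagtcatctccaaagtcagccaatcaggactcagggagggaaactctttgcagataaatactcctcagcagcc
Cxcl12: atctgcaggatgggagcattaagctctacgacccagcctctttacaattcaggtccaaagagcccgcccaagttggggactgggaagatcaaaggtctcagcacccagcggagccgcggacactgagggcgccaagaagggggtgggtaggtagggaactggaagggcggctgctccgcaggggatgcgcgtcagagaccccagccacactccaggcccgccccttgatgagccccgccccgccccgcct
*Cxcl1* and *Cxcl2* share the same letters GGGAATTTCC, which begin 71 and 97 bases before the start, and in both a match on the opposite strand overlaps them. *Cxcl10* holds GGGAAATTCC from 159 bases and GGGGACTTCC from 104 bases before the start, the latter overlapped by GGGACTTCCC on both strands, and the interferon element GAAAGTGAAA from 213 bases. *Ccl9* holds 1 NF-kappaB match on the opposite strand, GGAAAGCCCC, which spans 35 to 26 bases before the start. In the windows of *Cxcl12* and *Cx3cl1* neither motif was found. A match is a description of letters and was not tested for binding.

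Counted reads per library ran from 14726983 to 18536985, and mitochondrial genes took 3.86% to 4.65% of them. *Sting1*, which encodes STING, had 19, 16 and 23 counts in LOXP1 to LOXP3 and 24, 23 and 15 in KO1 to KO3 (log2 fold change -0.08, adjusted p = 0.883, edgeR's quasi-likelihood test with Benjamini-Hochberg adjustment). A lower *Sting1* level in the STINGLKO libraries was thus not detected. The deleted exons are not named in the sources used here and exons that remain would still yield reads. Whether the counted reads came from such exons was not tested. In these data the genotypes therefore rest on the labels. One library stood apart for chemokines. LOXP2 was the highest of the 6 libraries for 7 of the 9 tested chemokines, while it was the highest for 17% of all tested genes, a share that lay between 14.3% and 18.7% in the other libraries. Its level was at least 3 times the mean of LOXP1 and LOXP3 for 5 of these 9 chemokines and for 0.403% of tested genes, and its median ratio over all tested genes was 0.997. Each chemokine and each count of genes called by edgeR's quasi-likelihood test is therefore given with LOXP2 and without it. Other genes are given from all 6 libraries unless stated. LOXP2 was thus singled out by its levels of these same chemokines. Leaving it out removes the highest LOXP value for 7 of them, so p-values without LOXP2 are descriptions and not independent tests. Nothing in the labels says whether libraries of a group came from separate mice or cultures, so p-values measure the spread between these libraries.

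Levels of different genes were compared in FPKM, the read count scaled by the gene's length and by the library's counted reads. *Ccl2* was the most abundant chemokine of the 10 in every library, with 173, 637 and 201 FPKM in LOXP1 to LOXP3 and 106, 108 and 108 in KO1 to KO3. *Cxcl1* was second at 27.7, 129 and 25.1 FPKM in LOXP and 36.1, 37.0 and 38.6 in STINGLKO, and *Ccl7* followed in each library. Every other gene had a mean under 10 FPKM in both groups. In LOXP the mean order was *Ccl2*, *Cxcl1*, *Ccl7*, *Cxcl2*, *Ccl9*, *Cxcl5*, *Ccl5*, *Cxcl12*, *Cxcl10* and *Cx3cl1*, and the ranges of all neighbours overlapped except *Ccl2* with *Cxcl1* and *Cxcl10* with *Cx3cl1*. In STINGLKO the order was *Ccl2*, *Cxcl1*, *Ccl7*, *Cxcl5*, *Ccl9*, *Cxcl12*, *Ccl5*, *Cxcl2*, *Cxcl10* and *Cx3cl1*, with overlap between *Cxcl5* and *Ccl9*, between *Ccl9* and *Cxcl12*, and between *Ccl5* and *Cxcl2*. Summed over the 10 genes, the level was 221, 846 and 248 FPKM in LOXP and 156, 159.6 and 161 in STINGLKO. The 3 STINGLKO libraries thus lay close together, LOXP1 and LOXP3 lay above them, and LOXP2 lay far above all others.

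**Figure D1:**
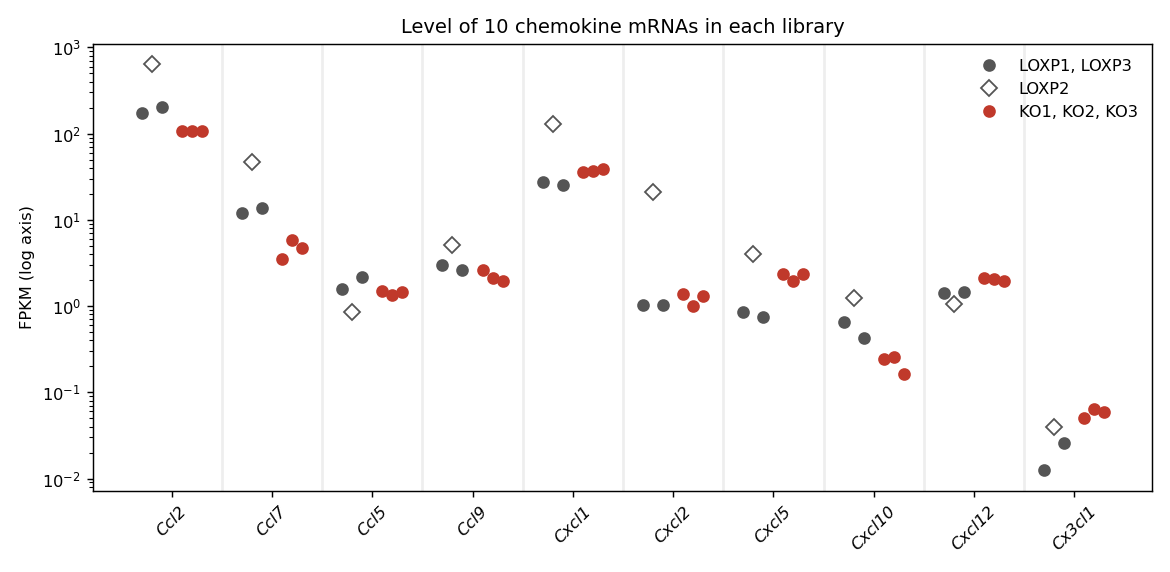
Level of each chemokine mRNA in FPKM on a log axis, 1 symbol per library (grey circles LOXP1 and LOXP3, open diamond LOXP2, red circles KO1 to KO3). LOXP2 is the highest library for 7 of the 9 tested genes, and for Cxcl1 and Cxcl5 the red circles lie above the grey circles but below the diamond.

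The ligands of CCR2, the receptor that brings monocytes into the liver, were lower in STINGLKO. *Ccl2* (ENSMUSG00000035385, chromosome 11, 81926397 to 81928279) encodes the main monocyte attractant, and *Ccl7* (ENSMUSG00000035373, chromosome 11, 81936538 to 81938351), its neighbour on the chromosome, encodes another. Normalized *Ccl2* was 331, 1253 and 387 CPM, the count scaled to the normalized size of its library, in LOXP1 to LOXP3 and 200.3, 206 and 202 in KO1 to KO3. All LOXP values were above all STINGLKO values, and LOXP2 was 3.49 times the mean of its replicates. The means were 657 ± 517 and 203 ± 3.06 CPM (SD, n = 3), a log2 fold change of -1.70 (95% interval -2.72 to -0.67, standard error 0.448), with an adjusted p of 0.0277 by edgeR's quasi-likelihood test with Benjamini-Hochberg adjustment. Without LOXP2 the change was smaller, as was its standard error, at -0.82 (standard error 0.0742, adjusted p = 4.22e-04, same test), or 1.77-fold lower. Leaving out KO1, KO2 or KO3 instead gave log2 changes of -1.68, -1.71 and -1.69, with edgeR adjusted p of 0.0818, 0.0827 and 0.0821. In bulk RNA, fewer cells of a type and less RNA per cell cannot be told apart, here and for every gene that follows.

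*Ccl7* was 9.72, 38.4 and 11.1 CPM in LOXP1 to LOXP3 and 2.80, 4.64 and 3.67 in KO1 to KO3. The groups did not overlap, and LOXP2 was again the highest, at 3.68 times the mean of LOXP1 and LOXP3. The log2 fold change was -2.40 (95% interval -3.61 to -1.18, standard error 0.533, adjusted p = 0.0142, edgeR's quasi-likelihood test) and -1.48 without LOXP2 (standard error 0.212, adjusted p = 0.00322), or 2.79-fold lower. Its call was lost without KO1 (adjusted p = 0.0541, edgeR) and without KO3 (0.0504, edgeR).

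Neither of the other CC chemokines passed the test. *Ccl5* (ENSMUSG00000035042, chromosome 11, 83416604 to 83421344) encodes an attractant of T cells and monocytes. It had 30, 15 and 40 counts in LOXP1 to LOXP3 and 28, 30 and 29 in KO1 to KO3, and LOXP2 was here the lowest library, at 0.463 times the mean of its replicates. The log2 fold change was -0.14 (95% interval -0.88 to 0.61, adjusted p = 0.805) and -0.41 without LOXP2 (interval -1.02 to 0.20, adjusted p = 0.329, both edgeR's quasi-likelihood test). *Ccl9* (ENSMUSG00000019122, chromosome 11, 83463745 to 83469462) encodes a CCR1 ligand found in rodents. Normalized *Ccl9* was 9.59, 16.9 and 8.56 CPM in LOXP and 8.29, 6.75 and 6.12 in STINGLKO, so the groups stood side by side without overlap, with KO1 just below LOXP3. Its log2 fold change of -0.73 (95% interval -1.31 to -0.14) had an adjusted p of 0.0779 by edgeR's quasi-likelihood test, and DESeq2 gave 0.0229 for the same size of change. Without LOXP2 it was -0.37 (interval -0.76 to 0.02, adjusted p = 0.178, edgeR).

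The 3 ligands of CXCR2, the neutrophil receptor, gave a different picture with and without LOXP2. *Cxcl1* (ENSMUSG00000029380, chromosome 5, 91039100 to 91040974), *Cxcl2* (ENSMUSG00000058427, chromosome 5, 91051730 to 91053797) and *Cxcl5* (ENSMUSG00000029371, chromosome 5, 90907219 to 90909483) lie in 1 chemokine cluster and encode neutrophil attractants. *Cxcl1* was 78.3, 374 and 71.7 CPM in LOXP1 to LOXP3 and 101, 105 and 107 in KO1 to KO3. The STINGLKO libraries lay above LOXP1 and LOXP3 and far below LOXP2, which was 4.99 times the mean of its replicates. With all libraries the log2 fold change was -0.75 (95% interval -2.02 to 0.53, adjusted p = 0.386, edgeR's quasi-likelihood test), which does not pass. Without LOXP2 it was 0.47 (interval 0.30 to 0.65, standard error 0.0765, adjusted p = 0.00514), so *Cxcl1* was then 1.39-fold higher in STINGLKO than in LOXP1 and LOXP3. That fit leaves out the library chosen for its high values.

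*Cxcl5* was 1.96, 9.37 and 1.71 CPM in LOXP1 to LOXP3 and 5.29, 4.42 and 5.19 in KO1 to KO3. The order was the same as for *Cxcl1*, since STINGLKO lay above LOXP1 and LOXP3 and below LOXP2. These values rest on 31, 134 and 26 counts in LOXP and 83, 82 and 89 in STINGLKO. The log2 fold change was 0.21 with all libraries (95% interval -1.08 to 1.49, adjusted p = 0.834) and 1.43 without LOXP2 (interval 0.94 to 1.92, standard error 0.213, adjusted p = 0.00364, both edgeR's quasi-likelihood test), or 2.70-fold higher. *Cxcl2* was 5.36, 113 and 5.40 CPM in LOXP and 7.01, 5.23 and 6.59 in STINGLKO. LOXP2 was 21.0 times the mean of LOXP1 and LOXP3 for this gene, the largest such ratio of the 10, and KO2 lay below both other LOXP libraries. The log2 fold change of *Cxcl2* was -2.71 (95% interval -5.22 to -0.21, adjusted p = 0.113) and 0.22 without LOXP2 (interval -0.20 to 0.64, adjusted p = 0.451, both edgeR). Neither passed, although the exact test of edgeR called it with all libraries (adjusted p = 0.0405). Of the transcript windows of 75 bases of *Cxcl2*, 4.57% also occur in *Cxcl3*, so a small part of its reads may be shared.

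*Cxcl10* (ENSMUSG00000034855, chromosome 5, 92494497 to 92496748), an interferon-induced ligand of CXCR3 that attracts activated T cells, was lower in STINGLKO. It was 3.09, 6.08 and 2.04 CPM in LOXP1 to LOXP3 and 1.15, 1.24 and 0.758 in KO1 to KO3, from 49, 87 and 31 counts and from 18, 23 and 13 counts. Groups did not overlap, and the 3 libraries with the fewest counts were those of STINGLKO. The log2 fold change was -1.82 (95% interval -2.79 to -0.85, standard error 0.426, adjusted p = 0.0175, edgeR's quasi-likelihood test) and -1.28 without LOXP2 (interval -2.05 to -0.52, adjusted p = 0.0332), or 2.44-fold lower. Without KO3 it had an adjusted p of 0.0625 by edgeR. Its level was low, with a mean of 0.770 ± 0.421 FPKM in LOXP and 0.222 ± 0.0523 in STINGLKO (SD, n = 3). The gene overlaps *Art3*, which had 28 counts over all 6 libraries, and the strand setting of the counting is not given in the sources used here.

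*Cxcl12* moved the other way. It encodes the ligand of CXCR4, which retains haematopoietic cells and is made mainly by stromal and endothelial cells (ENSMUSG00000061353, chromosome 6, 117145496 to 117158328). Normalized *Cxcl12* was 18.6, 14.3 and 18.8 CPM in LOXP1 to LOXP3 and 27.4, 26.4 and 24.7 in KO1 to KO3. Every STINGLKO library was above every LOXP library, and LOXP2 was the lowest of the 6, at 0.768 times the mean of its replicates. The log2 fold change was 0.60 (95% interval 0.34 to 0.87, standard error 0.117, adjusted p = 0.00792) and 0.49 without LOXP2 (interval 0.26 to 0.72, adjusted p = 0.0131, both edgeR's quasi-likelihood test), or 1.40-fold higher. Of the chemokines tested, *Cxcl12* was the only one that kept its call under all 15 alternatives run. *Cx3cl1* (ENSMUSG00000031778, chromosome 8, 95498637 to 95509055), the membrane-bound ligand of CX3CR1, had 1, 3 and 2 counts in LOXP and 4, 6 and 5 in STINGLKO and was not tested. Its pooled ratio of STINGLKO to LOXP was 2.21, with an exact 95% interval of 0.809 to 6.94 for counting error alone, so a difference was not detectable at this depth.

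Of the 9 tested chemokines, 3 were called lower in STINGLKO (*Ccl2*, *Ccl7* and *Cxcl10*) and 1 higher (*Cxcl12*), beside 11.6% and 11.5% of all tested genes called lower and higher. Without LOXP2, 3 were called lower and 3 higher (*Cxcl1*, *Cxcl5* and *Cxcl12*), beside 8.92% and 8.62% of all genes. With the study's added criteria of an absolute log2 fold change over 1 and an average of more than 1 FPKM in either group, *Ccl2* and *Ccl7* were lower and none was higher (*Cxcl12*, called without the fold criterion, had 0.60), beside 1.49% and 0.558% of genes. Without LOXP2, *Ccl7* was lower and *Cxcl5* higher by these criteria, beside 1.33% and 0.545% of genes, and *Ccl2* no longer reached the fold criterion. The libraries of the groups did not overlap for 4 tested chemokines lower in STINGLKO and 1 higher, beside 20.3% and 20.4% of genes, and without LOXP2 for 5 lower and 3 higher, beside 24.7% and 24.3%. An exact two-sided permutation test of mean CPM gave p = 0.1, the smallest that 3 libraries against 3 allow, for *Ccl2*, *Ccl7*, *Ccl9*, *Cxcl10* and *Cxcl12*. The median log2 fold change of the 9 was -0.75, and -0.37 without LOXP2, where the median of all tested genes was -0.002 and -0.004.

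**Figure D2:**
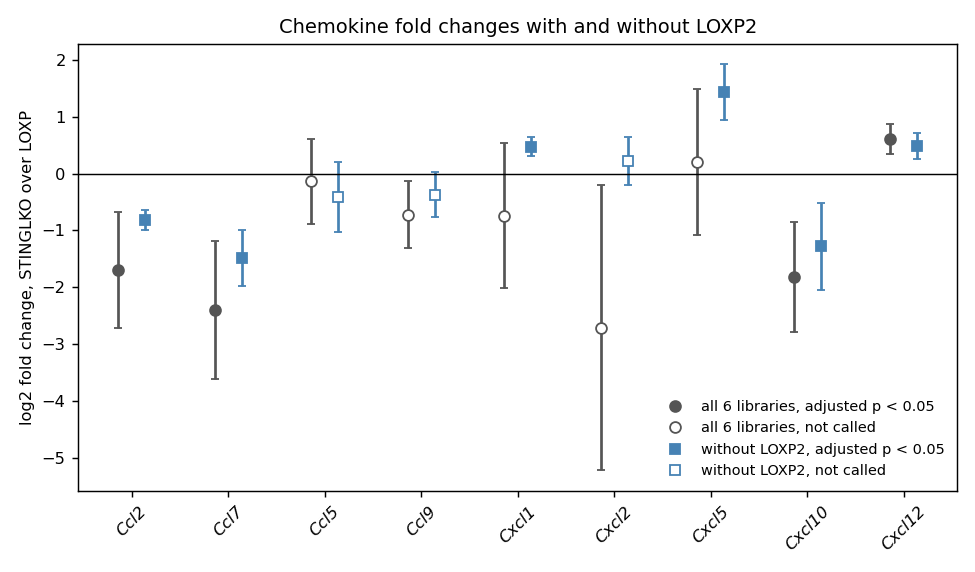
Log2 fold change of STINGLKO over LOXP for the 9 tested chemokines, with 95% confidence intervals, from all 6 libraries (grey circles) and without LOXP2 (blue squares); filled symbols have an adjusted p under 0.05. Without LOXP2 the values for Cxcl1 and Cxcl5 are 0.47 and 1.43 and their intervals lie above 0, while those of Ccl2, Ccl7 and Cxcl10 lie below 0 in both fits.

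The balance among the chemokines within a library was then compared, since a ratio does not change where both levels are scaled alike. These ratios were chosen after their values were seen and are given without a test. *Ccl2* was 6.25, 4.95 and 7.98 times *Cxcl1* in FPKM in LOXP1 to LOXP3 and 2.94, 2.92 and 2.80 times in KO1 to KO3. LOXP2 lay on the LOXP side, although both of its levels were far above those of every other library. *Ccl2* over *Cxcl5* was 201, 159 and 268 in LOXP and 44.9, 55.3 and 46.2 in STINGLKO, a mean of 209 ± 55.2 against 48.8 ± 5.67 (SD, n = 3). The groups were separate here as well, with LOXP2 included. Among the CXCR2 ligands themselves, *Cxcl1* over *Cxcl5* was 32.1, 32.0 and 33.6 in LOXP and 15.3, 19 and 16.5 in STINGLKO, so these neighbours did not keep 1 proportion.

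Between the CCR2 ligands, *Ccl2* over *Ccl7* was 14.3, 13.7 and 14.6 in LOXP and 30.0, 18.6 and 23.1 in STINGLKO. The LOXP values were nearly alike across the range of levels that LOXP2 spanned, and all STINGLKO values were above them. *Ccl2* over *Cxcl2* was 167, 29.9 and 193 in LOXP and 77.2, 106 and 82.7 in STINGLKO, so this ratio overlapped and LOXP2 was far below its replicates. *Ccl2* over *Cxcl10* was 267, 514 and 473 in LOXP and 436, 415 and 665 in STINGLKO, and overlapped too. As shares of the summed FPKM of the 10 genes, *Ccl2* held 75.3% to 80.9% in LOXP and 67.3% to 68% in STINGLKO, and *Cxcl1* held 10.1% to 15.2% and 23.1% to 24%. Of the 36 pairs of tested chemokines, the ratio did not overlap between the groups for 22, and for 31 without LOXP2. Over all pairs of genes above 0 in every library the shares were 38.9% and 47.6%.

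**Figure D3:**
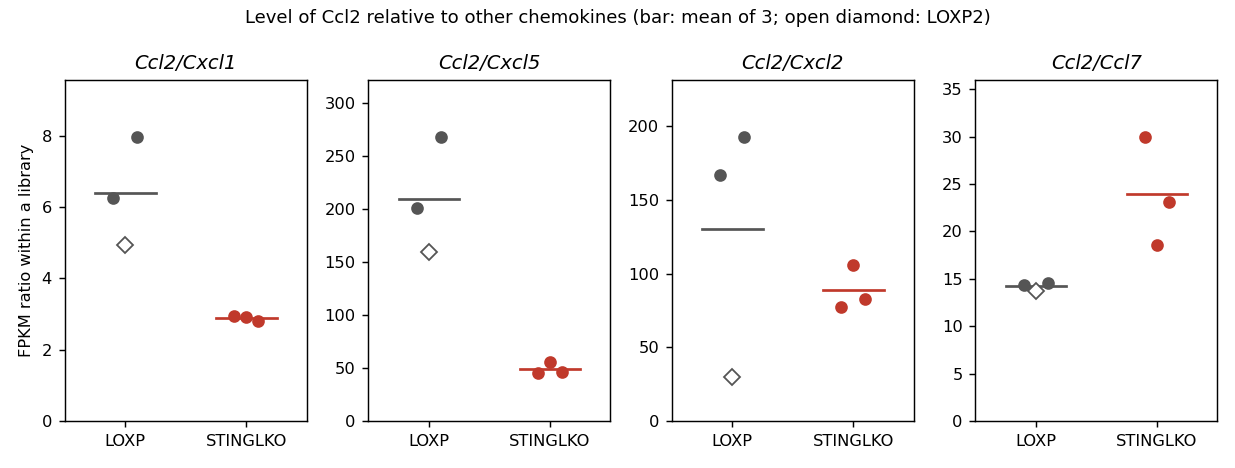
Ratio of Ccl2 to 4 other chemokines in FPKM within each library, on linear axes from 0 (grey LOXP, red STINGLKO, open diamond LOXP2, bar the mean of 3 libraries). LOXP2 lies with LOXP1 and LOXP3 for Ccl2/Cxcl1 (4.95) and Ccl2/Ccl7 (13.7), apart from the red circles, but not for Ccl2/Cxcl2 (29.9).

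The genes with the pattern most like *Ccl2* across the 6 libraries, by Pearson's r of log2 CPM among 11102 genes averaging over 1 FPKM in either group, were *Icam1* (r = 0.997), *Plpp3* (0.997), *Cald1* (0.996), *Ikbke* (0.996) and *Marcksl1* (0.995). *Icam1*, the leukocyte adhesion molecule, had 34.2, 84.0 and 36.1 FPKM in LOXP and 24.1, 25.6 and 26.3 in STINGLKO. As for *Ccl2*, LOXP2 was the highest library and the STINGLKO libraries the 3 lowest, and LOXP2 weighs heavily in each of these values. For *Cxcl10* they included *Nr5a2* (0.998), *Cebpg* (0.992), *Apoc3* (0.989) and *Nmi* (0.989). *Ccl2* had an r of 0.974 with *Ccl7*, 0.924 with *Cxcl10*, 0.775 with *Cxcl1*, 0.304 with *Cxcl5* and -0.94 with *Cxcl12*. These are descriptions over 6 libraries, which share their depth and LOXP2.

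The other mouse chemokines were mostly scarce, apart from *Cxcl16*, a membrane-anchored ligand of CXCR6 singled out after its values were seen, which had a mean of 18.5 FPKM and missed the threshold (log2 fold change -0.32, adjusted p = 0.143, edgeR). Of 28 listed, 8 were tested and 11 had 0 counts in all libraries, which leaves room for up to 3 counts per library. *Ccl6*, a macrophage-derived CCR1 ligand, and *Cxcl14*, a chemokine of epithelia, were called higher in STINGLKO, beside 11.5% of all tested genes. None was called lower by edgeR's quasi-likelihood test or DESeq2, while *Ccl20* was below an unadjusted p of 0.05 and was called by the exact test of edgeR. *Ccl6* had 68, 26 and 37 counts in LOXP and 100, 91 and 95 in STINGLKO (log2 fold change 0.96, adjusted p = 0.0450, edgeR's quasi-likelihood test), and *Cxcl14* had 21, 26 and 37 and 71, 50 and 67 (0.99, adjusted p = 0.0393). Without LOXP2 their adjusted p was 0.0913 and 0.0832 by edgeR, so neither call held and none of the 8 was called. *Cxcl9*, a CXCR3 ligand like *Cxcl10* and named after its values were seen, was the other of the 3 that were higher at an unadjusted p under 0.05 with all libraries. It had 8, 12 and 8 counts in LOXP and 18, 16 and 28 in STINGLKO, without overlap and in the opposite order to *Cxcl10*, and missed the adjusted threshold (log2 fold change 0.96, adjusted p = 0.102, and 1.22 with adjusted p = 0.0909 without LOXP2, edgeR's quasi-likelihood test). *Cxcl11*, the gene of a further CXCR3 ligand, also named after its values were seen, had too few counts to be tested. It had 5, 12 and 7 counts in LOXP and 4, 4 and 1 in STINGLKO, the same direction as *Cxcl10*. *Cxcl3*, *Ccl20*, *Ccl3* and *Ccl4*, named after their values were seen, were far higher in LOXP2 than in the other libraries, like *Cxcl2*. *Cxcl3*, a further CXCR2 ligand, had 27, 283 and 24 counts in LOXP and 26, 53 and 56 in STINGLKO, and *Ccl20*, the ligand of CCR6, had 30, 301 and 30 and 30, 18 and 17. Neither passed the test in either fit. *Ccl3* and *Ccl4*, which encode ligands of macrophages and T cells, were not tested. *Ccl3* had 3, 130 and 4 counts in LOXP and 8, 10 and 11 in STINGLKO, and *Ccl4* had 1, 36 and 1 and then 1, 0 and 0.

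Of 23 chemokine receptors, 3 were tested, 10 had 0 counts in all libraries, and *Ccr2* and *Cxcr2*, the receptors of the ligands above, had 2 counts each in total. The decoy receptor *Ackr3*, which takes up and degrades CXCL12, was the only receptor called by edgeR's quasi-likelihood test, with LOXP2 and without it. That made 1 of 3 tested lower, and 1 of 4 without LOXP2, beside 11.6% and 8.92% of all tested genes. *Ackr3* had fewer than 10 counts in every STINGLKO library and passed the filter on its LOXP counts alone. A gene admitted in this way is high in LOXP by selection, so this count is a description and not a test of direction. *Ackr3* had 21, 44 and 41 counts in LOXP and 4, 8 and 4 in STINGLKO (log2 fold change -2.89, standard error 0.440, adjusted p = 0.00256, and -2.66 with adjusted p = 0.00770 without LOXP2, edgeR's quasi-likelihood test). Its groups did not overlap, as for 20.3% of all tested genes in this direction. *Cxcr4*, the signalling receptor for CXCL12, had 35, 14 and 22 counts in LOXP and 39, 55 and 69 in STINGLKO and missed the threshold (log2 fold change 1.02, adjusted p = 0.0511, and 0.79 with adjusted p = 0.117 without LOXP2, edgeR). DESeq2 and the exact test of edgeR called *Cxcr4* higher. *Dpp4*, a protease that trims CXCL12 and CXCL10 at the amino terminus, had 529, 416 and 505 counts in LOXP and 302, 376 and 316 in STINGLKO (log2 fold change -0.72, standard error 0.0884, adjusted p = 9.21e-04, edgeR). At the mRNA level, the ligand *Cxcl12* was thus higher and both *Ackr3* and *Dpp4* were lower in the same libraries. The CXCL12 protein was not measured here.

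**Figure D4:**
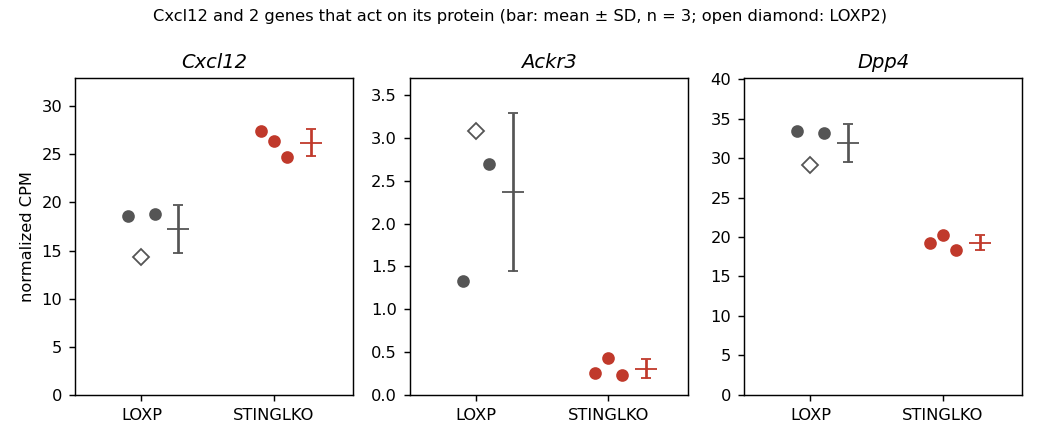
Normalized CPM of Cxcl12, of its scavenger receptor Ackr3 and of the protease Dpp4 in each library on linear axes from 0, with mean ± SD (n = 3) beside the points and LOXP2 as an open diamond. All 3 genes separate the groups, Cxcl12 upward in STINGLKO and the others downward, as 20.4% and 20.3% of all tested genes do in these directions. Ackr3 passed the count filter on its LOXP counts alone.

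The cytokines that induce these chemokines had at most 14 counts in any library other than LOXP2. *Tnf* had 0, 73 and 6 counts in LOXP and 6, 9 and 10 in STINGLKO, *Il1b* 0, 75 and 0 and then 0, 0 and 0, and *Il6* 1, 29 and 4 and then 2, 0 and 0. LOXP2, the library with the highest levels of 7 chemokines, was thus also the one with most counts of each of these cytokines. *Il1a* had 11, 109 and 14 counts in LOXP and 8, 7 and 7 in STINGLKO (log2 fold change -2.80, adjusted p = 0.0685, and -0.90 with adjusted p = 0.185 without LOXP2, edgeR's quasi-likelihood test). It was the only one of the 8 cytokines tested, and DESeq2 and the exact test of edgeR called it lower. It had fewer than 10 counts in every STINGLKO library and passed the filter on its LOXP counts alone. *Lta* had 0, 0 and 2 counts in LOXP and 0, 0 and 1 in STINGLKO, and *Il17a*, *Ifnb1* and *Ifng* were at 0 throughout, where up to 3 counts per library remain possible. The summed level of the 8 was 8.02 FPKM in LOXP2 and 0.351 to 0.749 in the others. The part of these cytokines in the chemokine levels was not tested.

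The inducing signal is carried and shaped by receptors and adaptors, by transcription factors, and by factors of mRNA decay and protein processing. Of 45 tested regulators, *Il1a* included, 13 were called lower in STINGLKO (28.9%) and 1 higher (2.22%), beside 11.6% and 11.5% of all tested genes, with a median log2 fold change of -0.29. Without LOXP2, 10 were lower (22.2%) and 3 higher (6.67%), beside 8.92% and 8.62% of all tested genes. Among receptors and adaptors 4 of 18 were called lower, and 2 without LOXP2, beside 11.6% and 8.92% of all genes. *Traf2*, an adaptor of tumour necrosis factor receptors, was 36.1 ± 1.74 CPM in LOXP and 23.1 ± 2.18 in STINGLKO (SD, n = 3, log2 fold change -0.65, adjusted p = 0.00169, edgeR's quasi-likelihood test). *Tlr2*, a Toll-like receptor for bacterial lipopeptides, had 326, 576 and 283 counts in LOXP and 217, 254 and 223 in STINGLKO (-0.97, adjusted p = 0.0324, edgeR). The changes of *Tnfrsf1a*, the main receptor for tumour necrosis factor (-0.21, adjusted p = 0.0329, edgeR), and of *Traf6*, an adaptor of interleukin 1 and Toll-like receptors (-0.29, adjusted p = 0.0363, edgeR), were small, and without LOXP2 both missed the threshold (0.0527 and 0.0960, edgeR).

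Of 17 transcription factors, 6 were called lower and none higher by edgeR's quasi-likelihood test, beside 11.6% and 11.5% of all tested genes. With all 6 libraries, DESeq2 and an unadjusted p under 0.05 also gave 6 lower and none higher. No share over all genes was computed for these, so they do not show whether the list differs from all genes. Without LOXP2, 5 were called lower, beside 8.92% of genes. By limma-trend with a pseudocount of 1 FPKM on all libraries there were 3, again without such a share. The call lost without LOXP2 was that of *Rela*, which encodes an NF-kappaB subunit and is named after its values were seen (log2 fold change -0.29, adjusted p = 0.0213, and -0.25 with adjusted p = 0.0614, edgeR). *Irf9* and *Stat2* encode subunits of the interferon-activated complex that binds the element seen in the *Cxcl10* promoter. *Irf9* was 62.2, 57.1 and 57.5 CPM in LOXP1 to LOXP3 and 35.0, 38.8 and 34.7 in KO1 to KO3 (log2 fold change -0.70, adjusted p = 5.12e-04, edgeR's quasi-likelihood test), and LOXP2 did not stand out. *Stat2* (-0.41, adjusted p = 0.0153), *Irf1*, an interferon-induced activator (-0.95, adjusted p = 0.0146), and *Nfkb2*, which encodes an NF-kappaB precursor (-0.54, adjusted p = 0.0120, all edgeR), were lower too. Each of these 4 kept its call without LOXP2.

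Among 9 tested genes of chemokine mRNA decay and protein processing, 3 were called lower and 1 higher, beside 11.6% and 11.5% of all tested genes. Besides *Dpp4*, these were *Mmp9*, a protease that cleaves CXC chemokines, with 40, 35 and 30 counts in LOXP and 8, 6 and 9 in STINGLKO (log2 fold change -2.35, adjusted p = 0.00108, edgeR's quasi-likelihood test), and *Zfp36l1*, which promotes decay of AU-rich mRNAs (-0.47, adjusted p = 0.0104, edgeR). *Elavl1*, which encodes an RNA-binding protein that stabilizes such mRNAs, was higher (0.33, adjusted p = 0.0142, edgeR). Without LOXP2, *Zfp36* (0.35, adjusted p = 0.0261, edgeR) and *Zc3h12a* (0.42, adjusted p = 0.0451, edgeR) were called higher as well, which made 3 lower and 3 higher, beside 8.92% and 8.62% of all genes. Both encode factors that degrade inflammatory mRNAs, and both were named after their values were seen. *Zc3h12a* had 151, 597 and 148 counts in LOXP and 206, 230 and 223 in STINGLKO, the same order as *Cxcl1*.

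**Figure D5:**
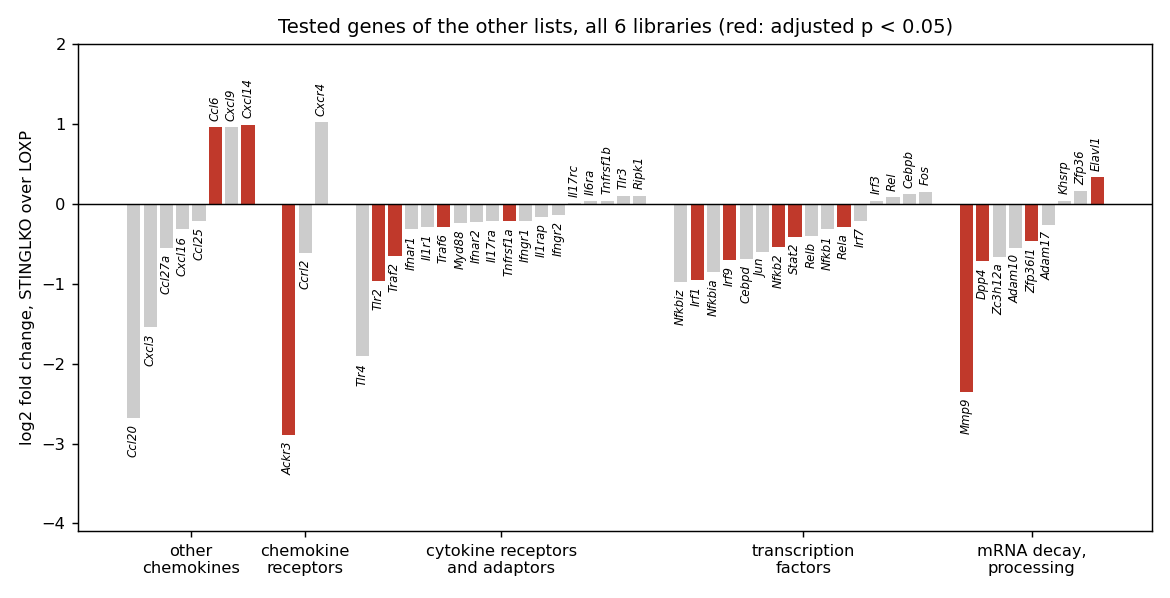
Log2 fold change of STINGLKO over LOXP for the tested genes of 5 lists, from all 6 libraries, with genes at an adjusted p under 0.05 in red; inducing cytokines and 1 transcription factor are not plotted. Among transcription factors all 5 red bars point down, and Ackr3 (-2.89) and Mmp9 (-2.35) are the longest red bars. Both of these passed the count filter on their LOXP counts alone.

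Markers of the cells that could contribute chemokines were measured in the same libraries. Hepatocyte markers dominated, with *Alb* at a mean of 7106 FPKM, *Apoa1* at 1115 and *Serpina1c* at 636, and their summed level was 10294 to 10654 FPKM in LOXP and 8856 to 9004 in STINGLKO. Of 11 tested, 9 were called lower in STINGLKO, with LOXP2 and without it, beside 11.6% and 8.92% of all tested genes. Macrophage and Kupffer cell markers summed to 70.8 to 89.6 FPKM in LOXP and 58.4 to 68.1 in STINGLKO, and they were led by *Cd68* (mean 29.3 FPKM), *Lyz2* (7.92) and *Mpeg1* (5.48). By library this sum was 77.9, 70.8 and 89.6 FPKM in LOXP1 to LOXP3 and 65.1, 68.1 and 58.4 in KO1 to KO3. *Cd68*, which encodes a lysosomal protein, was 72.3, 80.2 and 83.6 CPM in LOXP and 42.5, 47.2 and 39.5 in STINGLKO (log2 fold change -0.87, adjusted p = 4.21e-04, edgeR's quasi-likelihood test). In FPKM it was 34.9, 37.7 and 40.1 in LOXP and 20.8, 22.8 and 19.5 in STINGLKO. It was the largest single part of the macrophage sum in every library, so the separate sums rest heavily on this gene. Of the 15 tested markers of the list, 12 were not called. In the same list *Clec4f*, a defining Kupffer cell marker, had 88, 30 and 87 counts in LOXP and 90, 90 and 69 in STINGLKO. *Clec4f* was named after its values were seen. Of 15 macrophage markers tested, 3 were called lower and none higher, beside 11.6% and 11.5% of genes. Without LOXP2, 2 were lower and 1 higher, beside 8.92% and 8.62% of genes. The higher one was *Cd5l*, a secreted macrophage protein also named after its values were seen, with 98, 33 and 121 counts in LOXP and 170, 215 and 160 in STINGLKO (log2 fold change 0.94, adjusted p = 0.0853, and 0.58 with adjusted p = 0.0490 without LOXP2, edgeR's quasi-likelihood test). DESeq2 and the exact test of edgeR called 1 gene of this list higher with all libraries, for which no share over all genes was computed.

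Endothelial markers (*Cdh5* with 8.50, *Lyve1* with 6.21 and *Eng* with 4.53 FPKM) summed to 35.0 to 37.7 FPKM in LOXP and 32.6 to 35.6 in STINGLKO, with 1 of 11 tested called lower, and 2 of 12 without LOXP2, beside 11.6% and 8.92% of genes. Stellate cell and fibroblast markers (*Sparc* with 5.42, *Dcn* with 3.21 and *Acta2* with 1.74 FPKM) summed to 10.7 to 12.6 and 12.5 to 13.3 FPKM, and 0 of 9 were called by edgeR's quasi-likelihood test or DESeq2, with 1 at an unadjusted p under 0.05. Without LOXP2 edgeR's quasi-likelihood test again called 0 of 9, with 1 at an unadjusted p under 0.05. Over all tested genes this test called 11.6% lower and 11.5% higher, and 8.92% and 8.62% without LOXP2. No share over all genes was computed for DESeq2 or at an unadjusted p. The group ranges overlapped for both lists, and LOXP2 had the lowest sum of the LOXP libraries on each. Cholangiocyte markers (*Cldn4* with 83.4, *Sox9* with 10.4 and *Spp1* with 4.46 FPKM) summed to 124 to 145 and 65.7 to 77 FPKM, with 3 of 5 tested called lower and 1 higher, beside 11.6% and 11.5% of all genes. Without LOXP2 3 were called lower and none higher, beside 8.92% and 8.62% of all genes. *Krt19*, a keratin named after its values were seen, then missed the threshold (log2 fold change 0.82, adjusted p = 0.0479, and 0.67 with adjusted p = 0.119, edgeR). Neutrophil markers had 51 counts over all libraries, of which *Ly6g*, *Mpo* and *Camp* had 0, and their sum was highest in LOXP2, at 0.859 FPKM. *Csf3r*, *S100a9* and *S100a8* had the highest mean level of that list, with 21, 2 and 4 counts in LOXP2. All 9 lymphocyte markers had no count in any library, and the 4 mesothelial markers had 48 counts in all, most of them of *Msln*, then *Lrrn4* and *Upk3b*, with *Wt1* at 0. The part of these cells in the chemokine differences was not tested.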

How the data were processed

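RNA-seq of 6 libraries of palmitic acid-treated primary hepatocytes, 3 LOXP and 3 STINGLKO, was analysed. Libraries were assigned to groups by their labels. The authors sequenced paired-end reads, used HISAT2 for mapping, and their deposited table holds for each gene an FPKM value and a whole-number read count that was not normalized. FPKM scales the count by gene length and by the counted reads of the library. The submitters' processing notes also name fastp, StringTie, edgeR and the build GRCm39, by which positions are given. The annotation, the counting tool and the strand setting are not given in the sources used here. Per the file headers, no other sample is in the table.

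The counts were fitted with edgeR 4.0.16 under R 4.3.3. After filterByExpr by group with a minimum count of 10, TMM factors (0.973 to 1.02) were applied, and the groups were compared by edgeR's quasi-likelihood test, two-sided. Benjamini-Hochberg adjustment ran over the 14151 genes tested (14483 without LOXP2). A gene was called at an adjusted p under 0.05. CPM are counts scaled to the TMM-normalized library size. The 3 criteria of the study were also applied. Permutation tests and exact intervals were computed in Python 3.11.15 with scipy 1.17.1, and figures with matplotlib 3.10.9. Intervals of pooled counts and floors of 3 counts cover counting error only. The edgeR, DESeq2 and limma-trend fits were first run on simulated counts in which the changed genes were known. The permutation tests, exact intervals, ratios and correlations were not part of that run. Replicates differed by more than counting noise (chi-square per degree of freedom 7.77 to 16.7).

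The alternatives were DESeq2 1.42.0, edgeR's exact test, other size factors, other count filters, limma-trend (limma 3.58.1) on log2 FPKM with a pseudocount of 1 or 0.1, the replicate number as a block, and each library left out in turn. DESeq2 gave no adjusted p for 8 genes, *Cxcl2* among them. The chemokines and the gene lists were chosen with earlier results of these data known. Named were the 10 chemokines, *Sting1*, the called genes of each list (at most the 5 with the smallest adjusted p), every inducing cytokine, the 3 markers of each cell type list with the highest mean FPKM, and the 5 genes most like *Ccl2* and *Cxcl10*. From the receptors, *Ccr2*, *Cxcr2* and *Cxcr4*, the receptors of ligands described here, were also given, chosen after their values were seen. A few genes covered by this rule are not reported. The authors' RT-PCR is not analysed here.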

Additional observations from a re-analysis of the deposited data

How the results depend on the processing

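*Cxcl12* kept its direction and its call in all 15 alternatives (log2 fold change 0.40 to 0.67). *Ccl7* was called in 13 (-2.73 to -1.48), *Cxcl10* in 12 (-2.11 to -0.51) and *Ccl2* in 9 (-2.02 to -0.82), all without a change of direction. The -0.51 of *Cxcl10* came from limma-trend with a pseudocount of 1 FPKM, and with 0.1 it was -1.34. A pseudocount of 1 is above the mean level of *Cxcl10* in both groups (0.770 and 0.222 FPKM) and shrinks its change. *Ccl2* lost its call with every gene of at least 1 count (adjusted p = 0.0519, edgeR), with limma-trend at a pseudocount of 1 or 0.1 FPKM (0.105 and 0.102, limma) and without any 1 STINGLKO library. *Ccl9* was called in 3, namely DESeq2, edgeR's exact test and without LOXP3, *Cxcl2* in 1 (the exact test), *Cxcl1* and *Cxcl5* in 1 each (without LOXP2), and *Ccl5* in none. *Ccl5*, *Cxcl1*, *Cxcl2* and *Cxcl5* changed sign, all by leaving out a LOXP library. *Ccl5* ran from -0.41 to 0.19 (0.19 without LOXP3), *Cxcl1* from -1.12 to 0.47 (0.47 without LOXP2), *Cxcl2* from -3.24 to 0.22 (0.22 without LOXP2) and *Cxcl5* from -0.18 to 1.43 (-0.15 without LOXP1, -0.18 without LOXP3). Without LOXP2 the STINGLKO minus LOXP difference in mean CPM became 29.0 for *Cxcl1* and 0.897 for *Cxcl2*, and the log2 ratio of *Cxcl2* to *Ccl2*, 0.17 with all libraries, ran from -0.32 to 1.03 (-0.21 without LOXP1, -0.32 without LOXP3). *Cx3cl1* could be fitted with every gene of at least 1 count only (1.09, adjusted p = 0.354, edgeR).

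The count of chemokines called lower, 3, was 5 by edgeR's exact test, 1 by either limma-trend fit and 0 to 4 with a library left out (1 without KO1, 0 without KO3), and the count called higher, 1, was 1 to 3. By the study's criteria 2 were lower, 1 with every gene of at least 1 count or by either limma-trend fit, and 0 to 2 with a library left out. Other chemokines called higher, 2, were 0 with every gene of at least 1 count, 0 by limma-trend and 0 to 1 with a library left out, and called lower, 0, were 1 by the exact test and 0 to 1 with a library left out. Receptors called lower, 1, were 0 with at least 10 counts in every library, where *Ackr3* was no longer tested. Receptors called higher, 0, were 1 with that filter, by DESeq2 and by the exact test, and 0 to 1 with a library left out. Regulators called lower, 13, were 7 and 8 by limma-trend with a pseudocount of 1 and 0.1, and called higher, 1, were 0 to 3 with a library left out. The causes were not tested.

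The replicate numbers do not pair the libraries by any label, and the deviations of same-numbered libraries from their group means correlated at 0.12, 0.0834 and 0.0134. With the replicate number as a block, the replicate block gave 3 chemokines lower and 1 higher, as without it, and other chemokines called higher fell from 2 to 1. With 3 libraries a group, genes of few counts such as *Cx3cl1* and *Ccl5* are limited by depth.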
